A study of Sus scrofa with 5 samples.

Results

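Tuft cells of the piglet cecum were sought among 72701 barcodes as those with at least 200 detected genes and at least 2 of 5 tuft cell genes, TRPM5, SH2D6, SH2D7, GNG13 and POU2F3, each seen with 1 UMI (unique molecular identifier, a count of 1 captured RNA molecule) or more. The members were thus chosen by their measured counts of these 5 genes. The rule was met by 884 barcodes, named tuft-rule barcodes here. They came from 5 droplet single-cell RNA-seq libraries of the cecal mucosa of male large white piglets, 1 library for each of the ages d0, d1, d7, d14 and d21 after birth. The piglets had had only maternal milk, and cells of 5 piglets were mixed at each age, so that animals cannot be separated within a library. The mucosa was taken apart with EDTA and a short trypsin step, and no cells were sorted. With 1 library per age no test between ages was possible, and differences between ages are given with intervals that cover counting error only.

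Tuft cells are rare chemosensory cells of the epithelium with a tuft of long, stiff microvilli. They sense luminal compounds with parts of the taste cascade, in which a G protein frees calcium through phospholipase C and the calcium opens the cation channel TRPM5. The factor POU2F3 specifies them together with coactivators of the OCA-T family. In mice they are the main epithelial source of IL25 and release leukotrienes and acetylcholine, by which they call in type 2 immunity against worms and protists.

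The 5 genes of the rule lie on 4 chromosomes of the assembly Sscrofa11.1: TRPM5 at chr2:1646597-1664935, SH2D6 at chr3:59319980-59327058, GNG13 at chr3:40997556-41000718, SH2D7 at chr7:47812996-47824926 and POU2F3 at chr9:47376852-47458265. TRPM5 is the channel named above, GNG13 a G protein gamma subunit of taste cells, and SH2D6 and SH2D7 are adaptor proteins with an SH2 domain.

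The kept barcodes numbered 15218 at d0, 14142 at d1, 10272 at d7, 16177 at d14 and 16892 at d21, and the tuft-rule barcodes 439, 235, 112, 19 and 79. The libraries held 83394038, 80196009, 47921183, 91863866 and 69522315 counts in that order of age. Tuft-rule barcodes had a median of 2509 UMIs at d0, 1605 at d1, 1295 at d7, 11092 at d14 and 3815 at d21, which makes the 19 barcodes of d14 the deepest. A median of 40.3% of their counts was mitochondrial at d0, 15.5% at d1, 20.1% at d7, 4.62% at d14 and 4.27% at d21, and mitochondrial RNA therefore moved with age. The other epithelial barcodes, defined below, had medians of 23.2%, 10.2%, 9.64%, 3.05% and 3.99%, so that the tuft-rule barcodes stood above them at every age, most of all at d0 and d7. No tuft-rule barcode sequence occurred in more than 1 library, and 37 to 79 kept barcode sequences were shared by each pair of libraries.

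Their share of all kept barcodes was 2.88% at d0 (95% Clopper-Pearson interval 2.62 to 3.16), 1.66% at d1 (1.46 to 1.89), 1.09% at d7 (0.899 to 1.31), 0.117% at d14 (0.071 to 0.183) and 0.468% at d21 (0.370 to 0.583). Each of these intervals was apart from the others, but this order held for the rule as drawn. With at least 4 rule genes the share was highest at d7, at 0.321% (0.221 to 0.451), above d1 at 0.240% (0.167 to 0.336) and d0 at 0.171% (0.112 to 0.250), with overlapping intervals between neighbours. Of the epithelial barcodes alone, counted as the tuft-rule barcodes plus all with at least 2 of EPCAM, CDH1, CLDN7, CLDN3 and ELF3, they made up 4.34% at d0 (3.95 to 4.75), 3.19% at d1 (2.80 to 3.61), 14.7% at d7 (12.3 to 17.4), 5.57% at d14 (3.39 to 8.57) and 6.04% at d21 (4.81 to 7.47). The order of ages thus depended on the denominator, which held 10123, 7374, 762, 341 and 1308 epithelial barcodes, and d7 had the highest share in the second one. That share counts every tuft-rule barcode as epithelial, whether or not it held 2 of the epithelial genes. With the 2 genes asked of every barcode, a setting chosen after seeing the data, it was 2.86% at d0 (285 of 9969), 2.07% at d1 (151 of 7290), 7.80% at d7 (55 of 705, interval 5.93 to 10.03), 4.73% at d14 (16 of 338, 2.73 to 7.57) and 5.10% at d21 (66 of 1295, 3.96 to 6.44). The d7 interval then overlapped those of d14 and d21. How many epithelial cells a dissociation released was not measured.

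T cells should lack these genes and gave the background. T cell barcodes were those with at least 2 of the genes CD3D, CD3E, CD3G and CD2 and fewer than 2 of the 5 epithelial genes. They met the tuft rule in 1 of 254 cases at d0 (0.394%), 1 of 172 at d1 (0.581%), 3 of 2606 at d7 (0.115%), 1 of 5106 at d14 (0.020%) and 2 of 6398 at d21 (0.031%). Their median depths of 2193, 2814, 4578, 4594.5 and 4442.5 UMIs were above those of the tuft-rule barcodes at d1, d7 and d21. Without the limit on epithelial genes, 1, 2, 8, 3 and 9 tuft-rule barcodes from d0 to d21 held at least 2 T cell genes, so the limit lowered this background. The share in all kept barcodes was above the T cell share at every age, but the T cell intervals reached 3.20% at d1 and 0.109% at d14 and overlapped the shares there. Barcodes with none of the 5 epithelial genes, which can hold tuft cells of low depth, met the rule in 79 of 2579 cases at d0 (3.06%), 30 of 3108 at d1 (0.965%), 26 of 8228 at d7 (0.316%), 2 of 14788 at d14 (0.0135%) and 7 of 13716 at d21 (0.0510%). At d0 this share did not differ from that of all kept barcodes beyond counting error. Thinning every barcode to 1000 UMIs left the epithelial share highest at d7, at 10.96%, against 1.26% at d0, 0.856% at d1, 2.44% at d14 and 4.14% at d21, and left out 1359, 2024, 2376, 1832 and 3304 shallower barcodes.

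**Figure D1:**
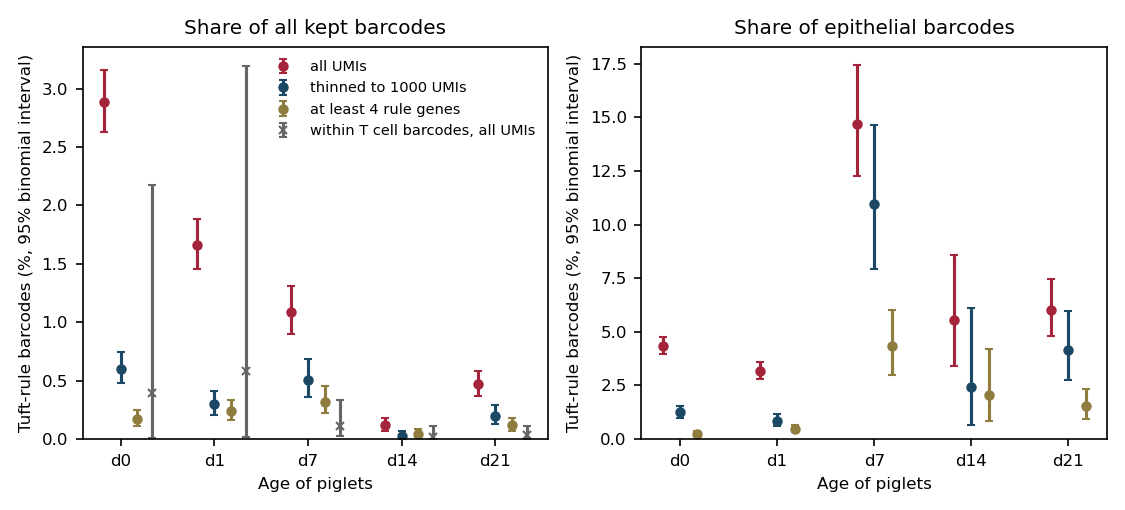
Tuft-rule barcodes as a percentage of all kept barcodes (left) and of epithelial barcodes (right) in the library of each age, with 95% binomial intervals, for all UMIs (red), after thinning to 1000 UMIs (blue) and with at least 4 rule genes (brown); grey crosses give the share within T cell barcodes. By all UMIs the left share is highest at d0 (2.88%) and the right share at d7 (14.7%).

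How the rule was met differed between ages. Exactly 2 of the 5 genes were detected in 321 of the 439 barcodes at d0, in 155 of 235 at d1, in 47 of 112 at d7, in 7 of 19 at d14 and in 40 of 79 at d21. All 5 genes were seen in 2, 8, 9, 1 and 9 barcodes. Just outside the rule, with 1 of the genes, lay 840, 643, 169, 355 and 136 barcodes. Of the d0 barcodes with 2 genes, 45.2% held the pair of TRPM5 and SH2D6, as did 47.1% at d1, 25.5% at d7, 14.3% at d14 and 2.50% at d21.

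The levels of the rule genes, which chose the barcodes and are given without a test, are summed counts of a gene per 10000 counts of the same barcodes, and are not scaled by transcript length. TRPM5 stood at 1.69 at d0, 1.48 at d1, 2.60 at d7, 0.480 at d14 and 1.17 at d21, and was seen in 77.9%, 75.3%, 74.1%, 52.6% and 38.0% of the barcodes. GNG13 had levels of 0.621, 0.561, 2.10, 0.660 and 2.52, and was seen in 28.2% of the barcodes at d0 and in 72.2% at d21. SH2D7 had levels of 0.670, 1.07, 3.32, 0.840 and 3.06, and POU2F3 had 0.419, 0.466, 1.67, 0.560 and 1.35. SH2D6 had levels of 1.45, 2.10, 3.38, 0.920 and 2.24, and was seen in 67.9%, 77.4%, 70.5%, 63.2% and 54.4% of the barcodes. TRPM5 and SH2D6 were thus the genes seen in most barcodes at d0 and d1, while at d21 these were SH2D7 (77.2%) and GNG13.

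Genes outside the rule were read by the number of rule genes in a barcode, to see where along that number other tuft genes appear. KRT18, a keratin that tuft cells hold in quantity, had at d0 levels of 0.856, 1.02, 1.15, 0.878, 7.74 and 10.9 in barcodes with 0, 1, 2, 3, 4 and 5 rule genes. At d21 its levels in the same order were 0.516, 3.09, 12.1, 18.9, 11.3 and 24.8. At d0 the step thus lay between 3 and 4 rule genes, whereas at d21 barcodes with 2 were already high. ALOX5AP, the protein that presents arachidonic acid to 5-lipoxygenase, gave the same contrast: 0.0886, 0.161, 0.169, 0.417, 2.82 and 9.68 at d0, and 0.283, 1.68, 4.43, 3.79, 2.15 and 6.17 at d21.

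The share of barcodes with at least 2 of 9 other tuft genes (BMX, LRMP, C9H11orf53, HMX2, HMX3, IL17RB, RGS13, KCTD12 and ALOX5AP) is given as a description, since these 9 were chosen after their values were seen. Among barcodes with exactly 2 rule genes it was 21.5% at d0 (69 of 321), 12.9% at d1 (20 of 155), 42.6% at d7 (20 of 47), 57.1% at d14 (4 of 7) and 65.0% at d21 (26 of 40). Among barcodes with 3 rule genes it was 19.6% at d0, 21.7% at d1, 59.4% at d7 and 73.7% at d21, and 3 of 5 barcodes at d14. Among those with 4 it was 54.2% at d0 (13 of 24), 69.2% at d1 (18 of 26), 50.0% at d7 (12 of 24), 100% at d14 (6 of 6) and 90.9% at d21 (10 of 11), so that the share did not rise at every step. In barcodes with no rule gene it was 0.818% at d0, 2.48% at d1, 5.61% at d7, 10.4% at d14 and 2.67% at d21, with leukocytes among them. At least 1 of the 9 genes was held by 54.8% of the barcodes with 2 rule genes at d0 and by 46.5% at d1. With 1 rule gene this was 35.6% and 38.1%, and with no rule gene 5.07% and 15.1%. At least 2 of the 9 were held by 9.88% of the barcodes with 1 rule gene at d0, 12.8% at d1, 14.8% at d7, 34.4% at d14 and 19.9% at d21. At d1 this was near the 12.9% of barcodes with 2 rule genes. Most of the d0 and d1 barcodes with 2 rule genes held fewer than 2 of the 9.

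**Figure D2:**
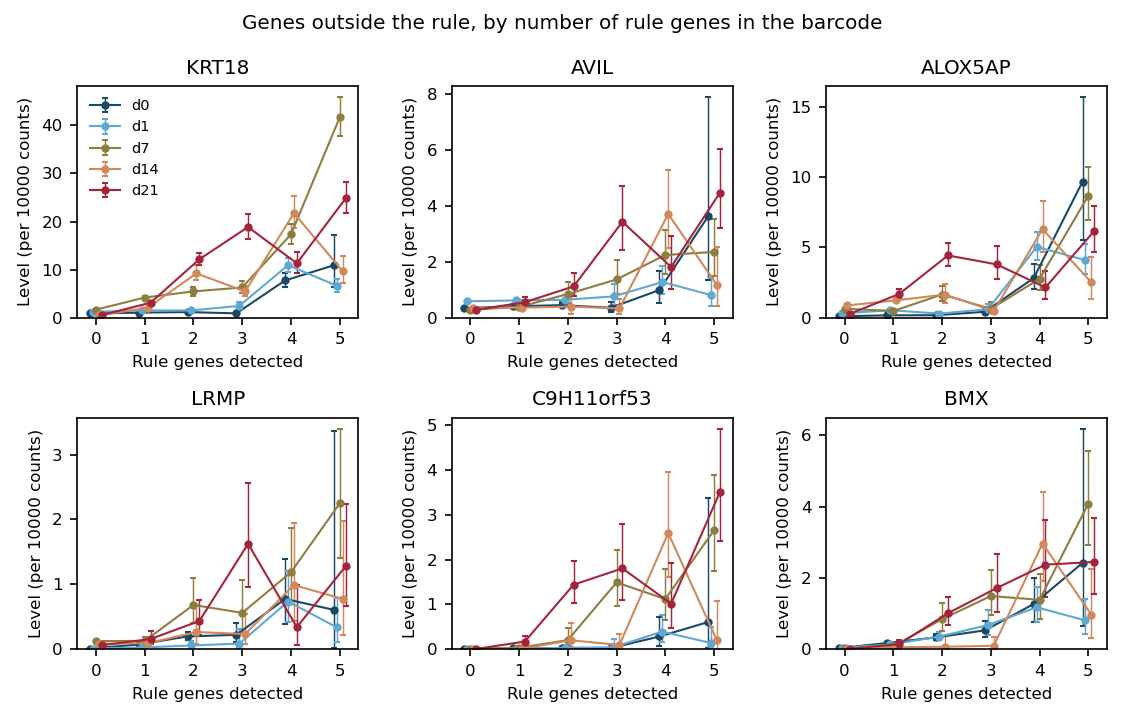
Levels (summed count per 10000 counts, 95% Poisson intervals, linear axes) of 6 genes outside the rule against the number of rule genes detected in the barcode, 1 line per age. For KRT18 and ALOX5AP the d0 line stays low up to 3 rule genes and is higher at 4 and 5, while the d21 line of KRT18 is already at 12.1 with 2 rule genes.

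The other epithelial character of the barcodes was partial. At least 2 of the 5 epithelial genes were detected in 64.9%, 64.3%, 49.1%, 84.2% and 83.5% of the tuft-rule barcodes from d0 to d21. Genes of other cell types were present too. At least 2 genes of a T cell, B cell, plasma cell, myeloid, mast cell, fibroblast, endothelial or erythroid list were held by 15 tuft-rule barcodes at d0 (3.4%), 73 at d1 (31.1%), 18 at d7 (16.1%), 14 at d14 (73.7%) and 20 at d21 (25.3%), called mixed barcodes below. The other epithelial barcodes were mixed in 3.2%, 41.0%, 43.4%, 61.0% and 38.2% of cases. Fibroblast genes summed to a level of 0.147, 5.18, 0.0303, 5.04 and 0.525 in the tuft-rule barcodes, with COL3A1 the most abundant at d1 and d14. At d1 its counts were spread over 69 barcodes, whereas at d14 93.8% of them lay in 1 barcode. Plasma cell genes summed to 19.9 at d14 through JCHAIN at 16.8, of whose counts 98.2% lay in 1 barcode, and to at most 1.09 at the other ages. The part of doublets or free RNA in these values was not tested, and the 19 barcodes of d14 are the least clean group.

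To find which genes set the tuft-rule barcodes apart within the epithelium, their summed counts were compared with those of 18707 other epithelial barcodes (9552, 6991, 634, 315 and 1215 by age) in edgeR's quasi-likelihood test, with the library as a block. The other epithelial barcodes held at least 2 of the 5 epithelial genes and did not meet the tuft rule. They also did not meet the rule for hormone-releasing enteroendocrine cells, at least 2 of CHGA, CHGB, SCG3, NEUROD1 and RFX6. Tuft-rule barcodes that met this second rule, 3 at d0, 2 at d1 and 1 at d14, were kept. The test asked for a difference that held across the 5 libraries, and a gene was called at an adjusted p of at most 0.05. Of 11296 genes tested, 146 were higher in the tuft-rule barcodes (1.29%) and 16 were lower (0.142%). The higher genes included genes of taste transduction, eicosanoid synthesis and the tuft transcription factors and a set of signalling proteins usually met in leukocytes. The lower genes included secretory products of goblet cells. Genes near 0 in the other epithelial barcodes, such as RGS21, HMX2, HMX3, C9H11orf53, RGS13 and LRMP, could pass the filter on low counts only through the tuft-rule barcodes, and the gene lists were chosen with earlier results known. The counts of list members called higher are therefore descriptions and no support by themselves. The same holds for the adjusted p values and the lack of overlap given below for genes near 0 in the other epithelial barcodes.

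Of 13 measured taste transduction genes outside the rule, 7 passed the filter on low counts and 4 were higher. RGS21, a regulator of G protein signalling of taste cells, had tuft levels of 0.328 at d0, 0.364 at d1, 1.01 at d7, 0.300 at d14 and 1.24 at d21, against 0.0104, 0.00320, 0.000724, 0.00295 and 0.00178 in the other epithelial barcodes. The groups did not overlap, and the log2 fold change was 6.58 (SE 0.50, edgeR adjusted p = 5.09e-05). PLCG2, a phospholipase C of receptor kinase signalling, had 1.39, 1.55, 3.45, 0.840 and 2.21 against 0.302, 0.204, 0.111, 0.120 and 0.222 (log2 fold change 3.07, SE 0.31, edgeR adjusted p = 0.000415).

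PLCB2, the phospholipase C of the taste cascade, stood at 0.0767, 0.107, 0.833, 0.0800 and 0.140 against 0.00498, 0.0140, 0.0304, 0.0369 and 0.0479, a log2 fold change of 3.01 (SE 0.49, edgeR adjusted p = 0.0119). ITPR2, a calcium release channel, had a log2 fold change of 2.01 (SE 0.27, edgeR adjusted p = 0.00288). It was the type 2 receptor that was called: ITPR3, the receptor usually named in taste cells, gave -0.30 (SE 0.19, edgeR adjusted p = 0.427). TRPM4, the sister channel of TRPM5, was measured at 0.467, 0.531, 0.106, 0 and 0.0350 against 0.441, 0.542, 0.562, 0.106 and 0.0968 and missed the threshold (edgeR adjusted p = 0.355).

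The receptors named here and the G protein subunit GNAT3 were at or near the floor, while the rule gene GNG13 was not. TAS1R3, a subunit of the sweet and umami receptors, had 1, 4, 0, 0 and 1 counts in the tuft-rule barcodes, and GNAT3, the taste alpha subunit gustducin, had 0, 1, 6, 0 and 0. The 13 TAS2R bitter receptor genes gave 1 count in all, from TAS2R16. SUCNR1, the succinate receptor, had 2 counts at d1 and none elsewhere, and FFAR2, a receptor for short-chain fatty acids, had 1 count at d0. At 3 counts, the limit that a count of 0 allows was a level of 0.0105 at d0, 0.0179 at d1, 0.0454 at d7, 0.0600 at d14 and 0.0525 at d21. A gene with no count may therefore still be expressed below these levels.

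Of 16 surface receptor genes measured, 10 passed the filter and 3 were higher. IL17RB, a subunit of the IL25 receptor, had 0.0663, 0.203, 0.454, 0.220 and 0.490 against 0.00270, 0.00135, 0, 0.00148 and 0.00266, a log2 fold change of 6.57 (SE 0.57, edgeR adjusted p = 0.000114). Every tuft value lay above every other epithelial value. KIT, the stem cell factor receptor (chr8:41402334-41492306), had 0.0942, 0.221, 1.04, 0.620 and 1.30 against 0.0209, 0.101, 0.0485, 0.0590 and 0.112 (log2 fold change 2.76, SE 0.38, edgeR adjusted p = 0.00359). The groups overlapped only through the d0 tuft value, which lay below the other epithelial values of d1 and d21. KIT is also a mast cell marker, and that list summed to 0.15, 0.28, 1.08, 0.68 and 1.96 in the tuft-rule barcodes. CD300LF, an inhibitory receptor known from myeloid and tuft cells, had a log2 fold change of 3.63 (SE 0.39, edgeR adjusted p = 0.000645).

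Of 12 measured genes of eicosanoid synthesis, 11 passed the filter and 3 were higher, all of them known from the making of leukotrienes. ALOX5AP (chr11:7371328-7438111) had 0.394, 1.25, 2.70, 1.98 and 4.24 against 0.0202, 0.136, 0.0529, 0.204 and 0.108 (log2 fold change 4.16, SE 0.34, edgeR adjusted p = 7.68e-05). LTC4S, which joins leukotriene A4 to glutathione (chr2:78799446-78802281), had 0.279, 0.514, 1.35, 1.10 and 2.08 against 0.0371, 0.0474, 0.0377, 0.0944 and 0.0604 (log2 fold change 3.84, SE 0.30, edgeR adjusted p = 5.82e-05). In both genes the lowest tuft value was above the highest other epithelial value. ALOX5, the lipoxygenase itself, differed less, with 0.216, 0.251, 0.333, 0.200 and 0.263 against 0.0598, 0.0656, 0.106, 0.0900 and 0.0604 (log2 fold change 1.64, SE 0.19, edgeR adjusted p = 0.000951). The prostaglandin enzyme PTGS1 gave 2.67 (SE 0.59) and missed the threshold (edgeR adjusted p = 0.0630), and HPGDS had 3 counts over all tuft-rule barcodes. LTA4H, which makes leukotriene B4, gave -0.17 (SE 0.20, edgeR adjusted p = 0.692).

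The cytokines and transmitters for which tuft cells are known were scarce. IL25 had 2, 2, 5, 0 and 0 counts, and TSLP and NMU had none at any age. CHAT, which makes acetylcholine, had 51 counts at d0, 30 at d1, 16 at d7, none at d14 and 6 at d21, or levels of 0.178, 0.179, 0.242, 0 and 0.105. DCLK1, a common tuft marker in mice, had 2, 3, 0, 0 and 1 counts. Of the 10 genes in this list only 2 passed the filter, and neither was called.

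Of 20 measured transcription factor genes, 18 passed the filter and 8 were higher. C9H11orf53, listed under that name and known as POU2AF2, a coactivator of POU2F3, had 0.0349 at d0, 0.0836 at d1, 1.09 at d7, 0.540 at d14 and 1.79 at d21, against 0.00128, 0.00135, 0.00435, 0.00443 and 0.0133 (log2 fold change 6.47, SE 0.35, edgeR adjusted p = 5.69e-06). COLCA2, its relative POU2AF3, had 0.0174, 0.0537, 1.03, 0.540 and 1.07 against 0.00299, 0.0118, 0.0232, 0.0413 and 0.0666 (log2 fold change 3.66, SE 0.39, edgeR adjusted p = 0.000571). Both coactivators were far higher from d7 on than at d0 and d1. C9H11orf53 lies at chr9:39024067-39065379 and COLCA2 at chr9:39071994-39081493, with 6614 bases between them.

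HMX2 and HMX3 are homeobox genes that neighbour each other, at chr14:132691108-132699477 and chr14:132684994-132687485. HMX2 had 0.0558, 0.0776, 0.454, 0.380 and 0.753 against at most 0.0124 (log2 fold change 6.21, SE 0.36, edgeR adjusted p = 7.65e-06). HMX3 had 0.115, 0.179, 0.530, 0.180 and 0.613 against at most 0.00384 (log2 fold change 6.22, SE 0.47, edgeR adjusted p = 5.01e-05). Neither gene overlapped between the groups.

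GFI1B, a zinc finger repressor of blood and tuft lineages, had a log2 fold change of 4.93 (SE 0.43, edgeR adjusted p = 0.000132), and SPIB, an Ets factor also found in lymphocytes, one of 3.45 (SE 0.39, edgeR adjusted p = 0.000836). SOX9, found in crypts and tuft cells, was higher by 1.48 (SE 0.18, edgeR adjusted p = 0.00163), and RUNX1 by 1.57 (SE 0.22, edgeR adjusted p = 0.00432). ATOH1 and SPDEF, which direct goblet cells, gave -0.93 (edgeR adjusted p = 0.212) and -1.29 (edgeR adjusted p = 0.0680).

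Of 23 measured genes of signalling proteins, 21 were tested and 10 were higher. LRMP, a membrane protein linked to inositol trisphosphate receptors, had 0.230, 0.167, 0.999, 0.420 and 0.788 against at most 0.0204 (log2 fold change 5.27, SE 0.23, edgeR adjusted p = 1.25e-06). RGS13, a neighbour of RGS21 on chromosome 10 (RGS13 at chr10:1056920-1082394, RGS21 at chr10:1341821-1396191), had 0.377, 0.287, 1.45, 0.800 and 1.42 against at most 0.0142 (log2 fold change 6.21, SE 0.38, edgeR adjusted p = 1.15e-05). Neither gene overlapped between the groups.

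MATK, a kinase that restrains Src kinases, had 1.36, 1.19, 4.27, 1.24 and 2.98 against 0.1003, 0.119, 0.254, 0.308 and 0.305 (log2 fold change 3.18, SE 0.26, edgeR adjusted p = 7.25e-05). The guanine nucleotide exchange factor VAV1 was higher by 2.87, the phosphoinositide 3-kinase subunits PIK3R5 and PIK3CG by 3.96 and 3.05, and the phosphatases PTPN18 and PTPN6 by 1.14 and 0.82. RAC2 was the smallest of the 10, at 0.68. The calls of 3 of these genes lay near the threshold. PTPN6 missed it without d0, d1, d7 or d21, at log2 fold changes of 0.83, 0.75, 0.74 and 0.85, PTPN18 without d14 or d21, at 1.08 and 1.04, and RAC2 without d1, d7, d14 or d21, at 0.68, 0.59, 0.71 and 0.67. The adaptor FYB, outside the fixed lists under this name, had 0.530, 0.949, 4.04, 1.70 and 4.03 against 0.0332, 0.0509, 0.104, 0.209 and 0.362, a log2 fold change of 3.85 (SE 0.29, edgeR adjusted p = 4.75e-05). Leukocyte genes were read beside this group, since several of its members are shared with leukocytes. The T cell genes had summed levels of 0.05, 0.06, 1.71, 0.60 and 2.03 against 0.05, 0.09, 0.65, 0.81 and 2.45, with none of the 3 tested called, and none of the 4 common leukocyte genes was called, PTPRC at 1.18 among them (edgeR adjusted p = 0.107).

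Of 19 measured genes of the cytoskeleton and tuft structure, 18 were tested and 5 were higher. BMX, a Tec family kinase on the X chromosome (chrX:12044110-12096042), had 0.419, 0.537, 1.60, 0.640 and 1.59 against 0.0285, 0.0431, 0.0275, 0.0236 and 0.0249 (log2 fold change 4.55, SE 0.32, edgeR adjusted p = 3.16e-05), with no overlap. FES, a kinase that binds membranes and microtubules, was higher by 3.55 and KCTD12 by 2.52. KRT18 had 1.49, 3.22, 13.7, 9.66 and 15.4 against 0.927, 1.499, 5.67, 6.40 and 2.78 (log2 fold change 1.06, SE 0.22, edgeR adjusted p = 0.0475). KRT18 was higher in all 5 libraries, but the call was lost without d1, d7, d14 or d21, at adjusted p values of 0.0656, 0.114, 0.0624 and 0.0548. The actin bundler AVIL, a tuft marker in mice, had 0.474, 0.746, 1.51, 0.980 and 2.22 against 0.368, 0.579, 0.406, 0.255 and 0.243 and missed the threshold (log2 fold change 1.35, SE 0.34, edgeR adjusted p = 0.0938).

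With at least 4 rule genes required, and so without d14, AVIL passed the threshold, with a log2 fold change of 1.94 and an edgeR adjusted p of 0.000208. Other genes of high fold belonged to no list. ST18, a zinc finger factor, was higher by 5.55 (SE 0.39, edgeR adjusted p = 2.67e-05), the membrane-bending protein PSTPIP2 by 4.52, and the tubulin TUBB2B by 3.79. DNAJC12, a cochaperone of the aromatic amino acid hydroxylases, had 0.0837, 0.257, 3.12, 1.84 and 4.52 against 0.0185, 0.0280, 0.0225, 0.0590 and 0.0666 (log2 fold change 4.62, SE 0.60, edgeR adjusted p = 0.00229), and like the POU2F3 coactivators was far higher from d7 on. The uncharacterised LOC100512793 at chr7:120658781-120695031 had 0.0593, 0.191, 0.712, 0.320 and 1.59 against at most 0.00710 (log2 fold change 7.17, SE 0.31, edgeR adjusted p = 1.25e-06).

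CD79B, a chain of the B cell receptor, was higher without the other B cell genes. Its levels were 0.0733, 0.406, 1.01, 0.580 and 1.16 against 0.00953, 0.0317, 0.141, 0.137 and 0.0772 (log2 fold change 2.97, SE 0.25, edgeR adjusted p = 0.000107). It was seen in 13, 30, 22, 11 and 31 tuft-rule barcodes. MS4A1, which defines B cells, had 0, 1, 6, 0 and 12 counts in them, and CD79A, the partner chain, 0, 1, 1, 0 and 0. Of the T cell, plasma cell, myeloid, fibroblast, endothelial, neural and erythroid genes tested (3, 4, 8, 5, 2, 1 and 1), none was called, and KIT was the 1 call among the 2 mast cell genes tested.

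**Figure D3:**
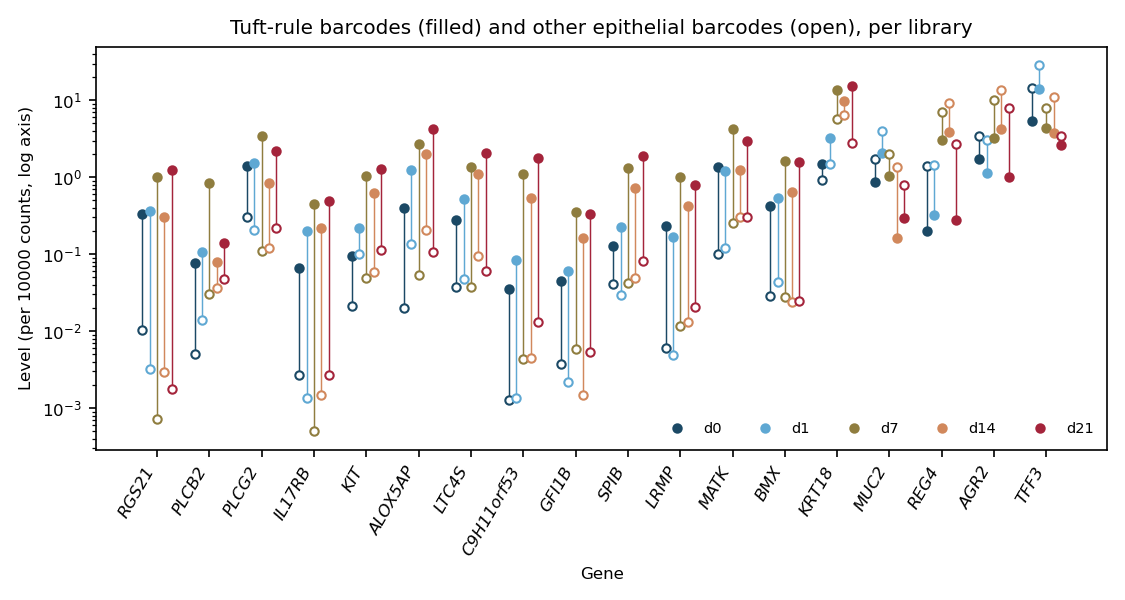
Levels (per 10000 counts, log axis) of 18 genes in tuft-rule barcodes (filled) and other epithelial barcodes (open), 1 colour per age, with a line joining the 2 values of a library; IL17RB at d7 is 0 in the other epithelial barcodes and drawn at the lower edge. RGS21, IL17RB, ALOX5AP, LTC4S, C9H11orf53 and BMX are higher in the tuft-rule barcodes in all 5 libraries, and MUC2, REG4, AGR2 and TFF3 are lower in all 5.

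Goblet cell genes were lower. Of 12 measured, 10 were tested and 5 were lower in the tuft-rule barcodes. REG4, a secreted lectin, had 0.199, 0.322, 3.06, 3.90 and 0.280 against 1.41, 1.42, 6.98, 9.17 and 2.74 (log2 fold change -2.18, SE 0.28, edgeR adjusted p = 0.00229). AGR2, a disulfide isomerase of mucus production, had 1.72, 1.14, 3.27, 4.18 and 0.998 against 3.46, 3.00, 10.0, 13.5 and 7.88 (log2 fold change -1.85, SE 0.26, edgeR adjusted p = 0.00432). MUC2, the gel-forming mucin, had 0.869, 2.07, 1.03, 0.160 and 0.298 against 1.72, 3.94, 1.99, 1.35 and 0.794 (log2 fold change -1.42, SE 0.25, edgeR adjusted p = 0.0175).

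In each library the tuft-rule value of these 3 genes lay under the other epithelial value. SPINK4 gave -1.48 and TFF3 -1.21, so that the goblet genes differed by about 1 to 2 log2 units and remained present. With at least 4 rule genes required, and so without d14, MUC2 gave -0.47 (edgeR adjusted p = 0.597), AGR2 -0.72 (edgeR adjusted p = 0.566) and REG4 -1.49 (edgeR adjusted p = 0.0506). Without d21 MUC2 had an edgeR adjusted p of 0.0743. TFF3 missed the threshold against barcodes matched on UMIs, at -0.85 (edgeR adjusted p = 0.0742), where the matching failed at d7 and left a median of 3613 UMIs against 1295.

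No gene of the absorptive, stem and crypt, proliferation, Notch and Wnt, antigen presentation or interferon lists was called, of 12, 9, 14, 14, 15 and 10 tested. FABP1, a fatty acid carrier of absorptive cells, had 24.4, 6.85, 12.3, 0.600 and 0.0700 in the tuft-rule barcodes against 24.5, 7.12, 100, 4.13 and 2.30 (log2 fold change -1.96, edgeR adjusted p = 0.150). At d7 92.1% of its counts in the tuft-rule barcodes lay in 2 barcodes, and at d14 90.0% in 1. At d0 and d1 its level was nearly that of the other epithelial barcodes, and it lay below them from d7 on. MKI67, a marker of dividing cells, gave 0.25 (edgeR adjusted p = 0.622).

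The cecum also holds enteroendocrine cells, which release hormones, and these were compared with the tuft-rule barcodes next. They were taken as the 402 barcodes (156, 185, 23, 11 and 27 by age) with at least 2 of CHGA, CHGB, SCG3, NEUROD1 and RFX6. Barcodes that met both rules, 3 at d0, 2 at d1 and 1 at d14, were in neither class. A median of 7.43%, 8.10%, 10.4%, 6.47% and 5.49% of the counts of the enteroendocrine barcodes was mitochondrial, under the tuft-rule barcodes at d0, d1 and d7, and the part of this difference in the results was not tested beyond a limit of 20%, under which 77 genes were higher and 231 lower. Of 6661 genes tested, 117 were higher (1.76%) and 255 lower (3.83%) in the tuft-rule barcodes. TRPM5, a rule gene given without a test, was also present in the enteroendocrine barcodes, at levels of 1.12 at d0, 0.752 at d1, 0.108 at d7 and 0 at d14 and d21.

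The enteroendocrine genes that could be tested were lower in the tuft-rule barcodes, among them the hormone and peptide genes PYY, GCG and TAC1. The hormone genes SST, CCK, NTS, INSL5 and GHRL were not tested. Of 19 enteroendocrine genes not used to choose barcodes, 11 passed the filter on low counts. Genes near 0 in the tuft-rule barcodes can pass it only through the enteroendocrine barcodes. The count of 11 lower and the adjusted p values of such genes are therefore no support by themselves. SCG2, secretogranin II of hormone granules, had 0.00355 at d0 and 0 at the other ages in the tuft-rule barcodes, against 9.33, 6.84, 17.4, 21.4 and 15.6 (log2 fold change -11.68, SE 0.34, edgeR adjusted p = 9.66e-09). PYY, the peptide YY of lower gut L cells, had 0.0461, 0.110, 0.0151, 0 and 0 against 222, 104, 13.0, 20.5 and 26.4. GCG, the glucagon precursor, had at most 0.0672 against 38.4, 10.7, 7.65, 24.4 and 16.4.

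Some endocrine genes were at 0 in all tuft-rule barcodes, so their fold was taken against the floor of 3 counts over the class. PCSK1, the prohormone convertase, had 3.19, 2.30, 3.34, 6.46 and 3.16 in the enteroendocrine barcodes, at least 580-fold higher. The factors ISL1 and PAX4 were at least 211-fold and 216-fold higher there, the peptide UCN3 at least 280-fold and the protease PAPPA2 at least 472-fold. SCG5, a chaperone of a related convertase, stood closer to the enteroendocrine barcodes, at 0.00709, 0.0244, 0.167, 0.259 and 0.228 against 0.391, 0.309, 0.647, 1.58 and 0.926 (log2 fold change -2.84, SE 0.41, edgeR adjusted p = 0.00128). Against the other epithelial barcodes SCG5 was instead higher, by 1.69, a call that was lost without d7, d14 or d21. In that comparison barcodes meeting the enteroendocrine rule were left out of the other epithelial class but not of the tuft-rule barcodes. The part of this choice in the SCG5 fold was not tested. Enzymes of lipid signalling also went apart. PTGDS, a prostaglandin D synthase, was lower in the tuft-rule barcodes by 5.82 log2 units (log2 fold change -5.82, SE 0.55, edgeR adjusted p = 4.29e-05), while ALOX5AP was higher, with 0.401, 1.28, 2.70, 2.56 and 4.24 against 0.0575, 0.0501, 0.108, 0.158 and 0.116 (log2 fold change 4.40, SE 0.30, edgeR adjusted p = 2.91e-06).

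Many of the tuft genes named above were higher here too, and both comparisons share the tuft-rule barcodes and are not independent. RGS21 was at 0 in all enteroendocrine barcodes and was at least 43.2-fold higher in the tuft-rule barcodes. LRMP was higher by 5.23, RGS13 by 5.47, BMX by 4.93, MATK by 3.63, PLCG2 by 3.66, LTC4S by 3.74 and ALOX5 by 3.48 log2 units. Signalling genes were called higher in 8 and lower in 1 (RGS2) of the 16 tested of 23 measured. Leukocyte genes were called with them, PTPRC at 1.11 (SE 0.19, edgeR adjusted p = 0.00472), KIT at 2.08 (edgeR adjusted p = 0.00538) and CD79B at 1.94 (edgeR adjusted p = 0.0305). The CD79B call was lost without d0, d1, d14 or d21. AVIL, which missed the threshold before, was called here, with 0.479, 0.757, 1.51, 1.22 and 2.22 against 0.196, 0.459, 0.269, 0.315 and 0.309 (log2 fold change 1.73, SE 0.30, edgeR adjusted p = 0.00554). The epithelial adhesion gene EPCAM stood at 14.2, 13.4, 5.50, 6.02 and 5.65 against 11.8, 11.3, 7.38, 7.56 and 6.14 and missed the threshold (log2 fold change 0.06, edgeR adjusted p = 0.911).

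The factor ETV1 was lower by 6.63 log2 units (log2 fold change -6.63) and FOXA1 was lower with a log2 fold change of -1.10, while RUNX1 was higher by 2.48. The class II genes SLA-DRA, SLA-DQA1 and SLA-DQB1, which present antigen, were called higher, SLA-DRA with 0.844, 3.67, 1.59, 3.83 and 0.980 against 0.564, 0.643, 0.431, 0.788 and 0.425 (log2 fold change 1.78, SE 0.28, edgeR adjusted p = 0.00235). The summed myeloid genes were at 0.0802, 7.41, 2.73, 8.70 and 0.840 in the tuft-rule barcodes, highest at d1 and d14 as SLA-DRA was. With mixed barcodes left out SLA-DRA gave 0.33 (edgeR adjusted p = 0.642), and with at least 4 rule genes -0.93 (edgeR adjusted p = 0.440), so its direction was not stable. Both settings also left out d14.

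**Figure D4:**
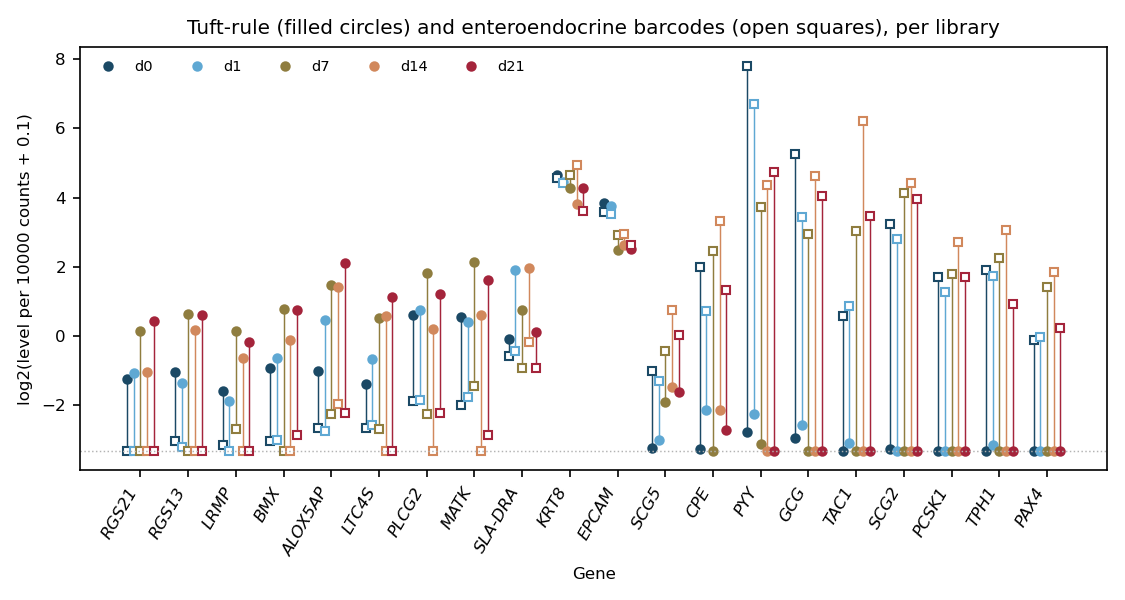
log2 of the level per 10000 counts plus 0.1 for 20 genes in tuft-rule barcodes (filled circles) and enteroendocrine barcodes (open squares), 1 colour per age; the dotted line marks a level of 0. RGS21 and RGS13 are above the squares in every library, EPCAM overlaps, and PCSK1 and PAX4 lie on the dotted line in all tuft-rule barcodes.

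Ages were then set against each other within the tuft-rule barcodes, with the other epithelial barcodes read beside them. A nuclear gene was past the fold when its levels differed at least 2-fold, it had at least 20 counts in both libraries together and its 95% Poisson intervals did not overlap. From d0 to d1, 392 of 9897 genes were past the fold upward (3.96%) and 145 downward (1.47%). Of these 537 genes, 386 (71.9%) differed at least 2-fold in the same direction in the other epithelial barcodes. From d0 to d21, 1308 of 9266 genes were past the fold upward (14.1%) and 977 downward (10.5%). Of the 2282 past the fold that were not rule genes, 1395 (61.1%) differed at least 2-fold in the same direction in the other epithelial barcodes. With mitochondrial genes out of the denominator, 1005 genes were past the fold upward and 1320 downward from d0 to d21. The 2 comparisons share the d0 library.

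The largest differences downward at d1 included genes known from bile acid handling and from absorptive cells. FABP6, the bile acid carrier, had a level of 2.88 at d0 and 0.0717 at d1 (log2 ratio -4.12, against -3.70 in the other epithelial barcodes), and SLC10A2, the bile acid transporter, 1.24 and 0.149. TMIGD1 went from 11.01 to 2.38 and SLC51B from 8.62 to 2.21. Of 16 measured absorptive genes 7 were past the fold downward and none upward, beside a background of 1.47%.

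The 8 largest differences upward at d1 included genes of enteroendocrine cells, macrophages and stroma. PYY stood at 0.0453 at d0 and 7.57 at d1, but 97.3% of its 1267 counts lay in 1 barcode, and without the barcodes that met the enteroendocrine rule its d1 level was 0.110. SST had 99.2% of its counts in 1 barcode. C1QA, a complement gene of macrophages, was at 0 at d0 and 3.35 at d1 in 24 barcodes. It was gone when mixed barcodes were left out. C1QA belongs to the myeloid list that helps define mixed barcodes, so this loss follows from the definition and decides nothing. COL3A1 was seen in 69 barcodes at d1. Of the endothelial, fibroblast and myeloid genes, 4 of 4, 4 of 5 and 4 of 8 measured were past the fold upward, beside a background of 3.96%.

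Among genes of the tuft lists, KRT18 went from 1.49 to 3.22 (log2 ratio 1.06) and ALOX5AP from 0.394 to 1.25 (log2 ratio 1.45). With at least 4 rule genes these ratios were 0.17 and 0.38. Of 13 measured taste transduction genes none was past the fold. Eicosanoid synthesis had 1 of 12 upward and 1 downward (PTGES), and the cytoskeleton list 2 of 19 upward and 1 downward (KRT20). Upward only were 2 of 16 surface receptors and 1 of 10 cytokines and transmitters. The same held for 1 of 20 transcription factors and 2 of 23 signalling genes. The backgrounds were 3.96% upward and 1.47% downward. OLFM4, a crypt gene, had a log2 ratio of 2.86 in the tuft-rule barcodes and 2.86 in the other epithelial barcodes.

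At d21 the absorptive genes were near 0 in the tuft-rule barcodes. FABP1 stood at 24.4 at d0 and 0.0700 at d21 (log2 ratio -7.17), PRAP1 at 17.4 and 0.0175 (log2 ratio -7.22), TMIGD1 at 11.01 and 0, and KRT20, a keratin of mature surface cells, at 10.7 and 0.140. KRT20 had 11.5 and 2.15 in the other epithelial barcodes, and DMBT1, a secreted scavenger protein, 6.67 and 0.0175 in the tuft-rule barcodes and 7.12 and 1.65 in the others. Of 16 measured absorptive genes 14 were past the fold downward at d21, beside a background of 10.5%. The 16 genes summed to 82.8, 30.9, 15.5 (12.3 of it FABP1, mostly in 2 barcodes), 2.10 and 0.858 over the ages, against 106, 42.4, 113, 5.98 and 5.92 in the other epithelial barcodes.

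At d0 absorptive genes were present also in barcodes with many rule genes. In those with 4 or 5 rule genes, FABP1 had 22.6 at d0 (95% Poisson interval 20.4 to 25.1), 3.34 at d1, 0.641 at d7, 0.151 at d14 and 0.0548 at d21. TMIGD1 had 4.98 at d0 and 0.905 at d1 in the same barcodes, and 0.0401, 0 and 0 later. These barcodes numbered 26 at d0 and 34 at d1, and the part of free RNA from surrounding absorptive cells in their values was not tested. In the other epithelial barcodes FABP1 stood at 24.5 at d0.

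Several tuft genes, but not all, had higher levels at d21 than at d0. C9H11orf53 had a log2 ratio of 3.81 (0.16 in the other epithelial barcodes), SPIB 3.13 (0.38), ALOX5AP 3.13 (0.79), KIT 2.85 (0.81), LTC4S 2.53 (0.23) and AVIL 2.02 (-0.45). KRT18 had 3.28 (1.49). Of 23 measured signalling genes 10 were past the fold upward and none downward, and of 20 transcription factors 10 upward and 3 downward. Of 13 taste transduction genes 1 was past the fold upward (RGS21) and 2 downward (ITPR3 and TRPM4), and of 12 eicosanoid synthesis genes 2 upward and 2 downward (PTGS2 and PTGES), beside backgrounds of 14.1% and 10.5%. Leukocyte genes were higher beside them: all 4 common leukocyte genes (PTPRC, CORO1A, LCP1 and CD53) were past the fold upward, as were CD3E and CD3G of the T cell list and FCER1A, MS4A2 and KIT of the mast cell list. PTPRC was seen in 32 of the 79 barcodes at d21 and CD3E in 17, while all counts of FCER1A lay in 1 barcode. The 4 common leukocyte genes summed to 0.429, 1.11, 7.27, 3.32 and 5.65 over the ages in the tuft-rule barcodes and to 0.199, 0.869, 2.24, 2.89 and 4.69 in the others, and their part in the signalling genes, SPIB and KIT was not tested. CHAT was not past the fold, with a log2 ratio of -0.44.

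These ratios depended on how strictly the rule was drawn. With at least 4 rule genes the d21 to d0 log2 ratios were 0.25 for ALOX5AP, 0.54 for LTC4S, 1.17 for KRT18 and 1.27 for AVIL. In those barcodes ALOX5AP stood at 3.53 at d0 (2.67 to 4.59), 4.64 at d1 (3.95 to 5.40), 5.09 at d7 (4.24 to 6.05), 4.82 at d14 (3.72 to 6.16) and 4.22 at d21 (3.33 to 5.27), with d0 and d21 within each other's interval. C9H11orf53 kept a log2 ratio of 2.53 and KIT of 2.23. C9H11orf53 stood there at 0.315 at d0 (0.102 to 0.736), 0.283 at d1 (0.136 to 0.520), 1.72 at d7 (1.25 to 2.32), 1.66 at d14 (1.04 to 2.51) and 2.30 at d21 (1.66 to 3.11), so that the d0 and d1 intervals lay under those of the 3 later ages. SPIB was likewise lower at d0 and d1, with 0.567, 0.679, 2.60, 1.88 and 2.85.

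Proliferation genes were also higher with age. MKI67 had levels of 0.0105 at d0 and 0.840 at d21 (log2 ratio 3.09, against 2.62 in the other epithelial barcodes). At d21 13 of 14 measured proliferation genes were past the fold upward, beside a background of 14.1%. Summed, the 14 genes stood at 2.54, 4.40, 34.8, 32.8 and 31.2 in the tuft-rule barcodes and at 2.11, 5.13, 14.3, 23.9 and 22.8 in the others. In both classes they were low at d0 and d1 and high from d7 on, and the highest of them was HMGB2, a chromatin protein. Few tuft-rule barcodes held MKI67, 14 of 112 at d7 and 15 of 79 at d21. At d14 85.7% of the MKI67 counts and 86.6% of the TOP2A counts lay in 2 of the 19 barcodes.

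Interferon genes and class I antigen presentation genes were also higher at d21 than at d0. IFI6, an interferon-induced protein, had 0.478 at d0 and 31.5 at d21 and was seen in 76 of 79 tuft-rule barcodes at d21 (log2 ratio 5.78, against 5.08 in the other epithelial barcodes). Of the 10 measured interferon genes 9 were past the fold upward, and of 15 antigen presentation genes 9, beside a background of 14.1%. The 9 antigen presentation genes included B2M, SLA-1, SLA-2, SLA-3, TAP1, PSMB8 and PSMB9. The class II genes SLA-DRA, SLA-DRB1, SLA-DQA1 and SLA-DQB1 were past the fold at d1 and not at d21, and CD74 and SLA-DMA at both ages. Beside the class II genes, the myeloid genes CSF1R, C1QA, C1QB and C1QC were past the fold at d1, and their part in the class II levels was not tested. B2M, the light chain of class I molecules, had a log2 ratio of 1.55 against 1.08. CCL5, a chemokine of T cells, had 0.799 and 27.4 in the tuft-rule barcodes and 0.537 and 26.4 in the others, and was seen in 78 of 79 tuft-rule barcodes. T cell barcodes were far more numerous at d21, with 6398 against 254 at d0, and without mixed barcodes the log2 ratio of CCL5 was 3.36 in place of 4.94. The part of free T cell RNA in these values was not tested.

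**Figure D5:**
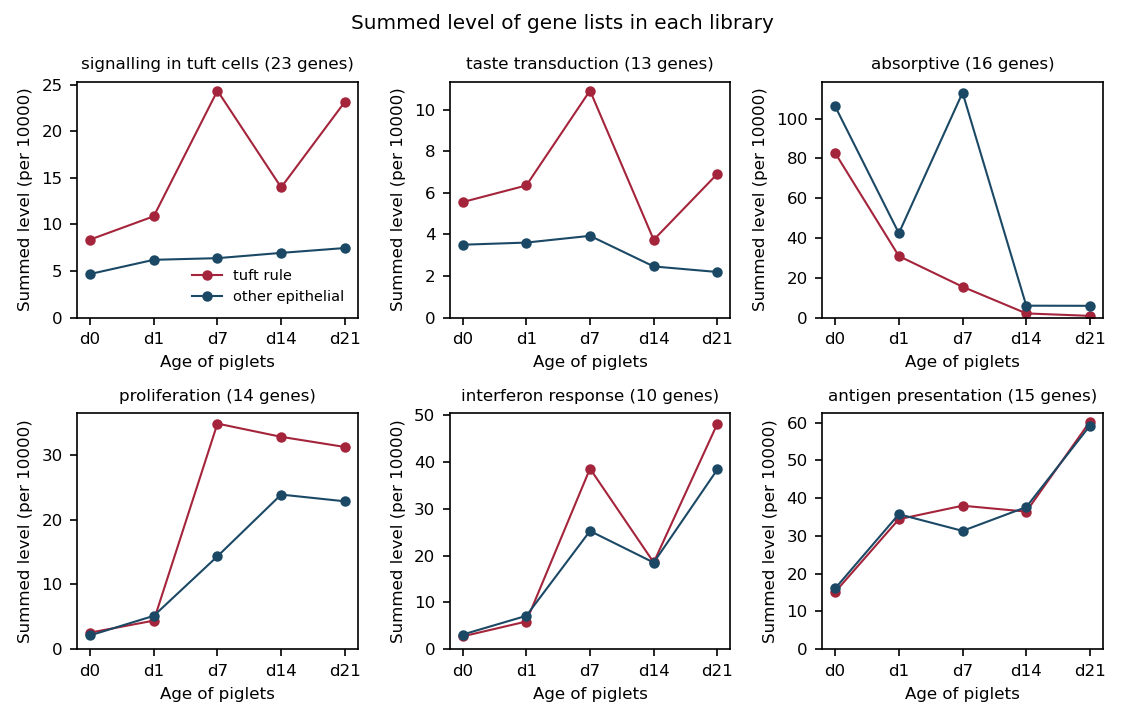
Summed levels (per 10000 counts) of 6 gene lists in tuft-rule barcodes (red) and other epithelial barcodes (blue) of each age, 1 library per point. Absorptive genes stand at 82.8 at d0 and 0.858 at d21 in the tuft-rule barcodes, antigen presentation genes run together in both classes, and signalling genes of tuft cells are higher in the tuft-rule barcodes at every age.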

How the data were processed

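The authors deposited counts of UMIs per gene and barcode, 1 matrix per age with 20648 genes, made with Cell Ranger 3.1.0 and STAR on Sscrofa11.1 per the labels and the submitters' processing notes, with a forced number of cells and without normalization. The kit is version 3 in the labels and an earlier one in the methods. Members and gene lists were chosen with earlier results of these data known. Barcodes with at least 200 genes were kept and doublets were not removed. Counts were summed per library and class and tested with edgeR 4.0.16 (R 4.3.3; TMM, filterByExpr, glmQLFit and glmQLFTest, library as block, Benjamini-Hochberg over all genes tested), in libraries with at least 10 barcodes in both classes, after a test on simulated data. Cells are not replicates, and the replicates are the 5 libraries, which differ in age. Genes used to choose a class got no test. Levels are per 10000 counts, with exact 95% Poisson or Clopper-Pearson intervals, which cover counting error only. Age ratios are log2 with 0.1 added to both levels. The 13 mitochondrial genes get no ratio, but their counts stay in the denominator of all levels. Bounds against classes at 0 use 3 counts over the class.

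Genes are named from the lists, or as the 15 highest and 10 lowest called folds of a class comparison (same direction in every library, mean level of at least 0.5), or as the 8 largest differences each way past the fold between ages; FYB is among the called folds. Coordinates are from the RefSeq annotation of Sscrofa11.1. Alternatives were DESeq2 1.42.0, other filters, stricter rules, thinning to 1000 UMIs, a limit of 20% mitochondrial counts, mixed barcodes left out and each library left out. A planned search of promoter sequence was not run. Results of some items withheld for evaluation are not reported here.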

Additional observations from a re-analysis of the deposited data

How the results depend on the processing

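The shares moved with the rule, depth and mixed barcodes. In order of age, the share of all kept barcodes was 0.775%, 0.566%, 0.633%, 0.0742% and 0.231% with at least 3 rule genes, 0.171%, 0.240%, 0.321%, 0.0433% and 0.118% with at least 4, a setting chosen after seeing the data, and 0.599%, 0.297%, 0.507%, 0.0279% and 0.199% after thinning. Barcodes under 20% mitochondrial counts gave 1.97%, 1.26% and 0.697% at d0, d1 and d7, barcodes with at least 500 genes 1.15% at d1, and leaving out mixed barcodes 2.51%, 1.94% and 0.858% at d1, d7 and d21. The share of epithelial barcodes was 1.17%, 1.08%, 8.53%, 3.52% and 2.98% with at least 3 rule genes, 0.257%, 0.461%, 4.33%, 2.05% and 1.53% with at least 4, and 1.26%, 0.856%, 10.96%, 2.44% and 4.14% after thinning. It was 2.55%, 2.59% and 11.002% at d0, d1 and d7 under 20% mitochondrial counts, 3.29%, 2.10% and 11.06% there with at least 500 genes, and 3.68% and 20.3% at d1 and d7 without mixed barcodes. With 2 epithelial genes asked of every barcode, a setting also chosen after seeing the data, it was 2.86%, 2.07% and 7.80% at d0, d1 and d7. The d7 share of epithelial barcodes was the highest of the ages under each of these settings, but not always beyond counting error. In the last setting its interval overlapped those of d14 and d21. It also overlapped that of d14 with at least 4 rule genes (3.00 to 6.03 against 0.829 to 4.18). The same held under 20% mitochondrial counts (8.42 to 14.05 against 3.23 to 8.64).

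Genes called against the other epithelial barcodes, 146 higher and 16 lower, became 296 and 172 with DESeq2, 282 and 231 with no filter on low counts, 315 and 394 with at least 3 rule genes, 239 and 490 with at least 4 (4 libraries), and 82 higher under 20% mitochondrial counts. Without mixed barcodes, and without d14, 29 were lower. With no replicate block, that is without the pairing of both classes by library, edgeR called 50 and 0, where 668 genes had an unadjusted p under 0.05 either way and DESeq2 was not run in this setting. Leaving out 1 library gave 101 to 152 higher and 9 to 69 lower, with 69 lower without d0, 58 without d1 and 9 without d21.

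Against the enteroendocrine barcodes, 117 higher and 255 lower became 576 and 741 with no filter and 34 and 142 with no replicate block. There were 69 and 157 with at least 3 rule genes, and 77 higher under 20% mitochondrial counts. With at least 4 rule genes 122 were lower, and without mixed barcodes 189 were higher. Both of these settings also left out d14. Leaving out 1 library gave 63 to 139 higher and 154 to 320 lower, with 63 and 154 without d0 and 70 higher without d7. Here the comparison matched on UMIs was not run, since the enteroendocrine barcodes were too few. SLA-DRA turned to -0.93 with at least 4 rule genes, where d14 was also left out.

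Between d0 and d1, 392 and 145 genes past the fold became 104 and 69 with at least 4 rule genes, 817 and 266 with 0.01 added to the levels, and 264 downward with mitochondrial genes out of the denominator. Between d0 and d21, 1308 and 977 became 267 and 147 with at least 4 rule genes, and 553 downward with at least 3. With mitochondrial genes out of the denominator they became 1005 and 1320, so that more genes were past the fold downward than upward. The causes of these differences were not tested. Small groups limit the precision, such as the 19 tuft-rule and 11 enteroendocrine barcodes of d14.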
